A study of Mus musculus with 30 samples.

Results

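The comparison described here set mouse embryonic stem cells (mESCs) that received Atoh1 together with the miR-183 family (p183AT) against mESCs that received Atoh1 alone (pAT), so that the microRNAs were the only difference in vector cargo. Its members were the arrays that the sample labels assign to these vectors in mESCs, 3 p183AT and 3 pAT arrays, which were 6 of the 30 arrays of the series. Expression was measured with Affymetrix Mouse Gene 2.0 ST arrays in mESCs and in iMOP cells, a line of otic progenitors from the embryonic mouse cochlea that was immortalized with c-Myc and derives from 1 clone. In both lines cells received p183AT, p183T (the miR-183 family alone), pAT or pT (the fluorescent reporter alone), or were left untransfected, with 3 arrays for each condition.

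All 4 vectors drove 1 primary transcript from an EF-1 alpha promoter. Where a vector carried them, the hairpins of miR-183, miR-96 and miR-182 lay in a human beta globin intron, and Myc-tagged murine Atoh1 and the red fluorescent protein tdTomato were separated by a 2A peptide. Both p183AT and pAT cells therefore carried Atoh1 and tdTomato, and both were ES-D3 cells, grown on mitotically arrested embryonic fibroblasts with LIF and moved to gelatin before lipid transfection. Red fluorescent cells were sorted 48 hours after transfection, and total RNA of the sorted cells was labelled. The labels call the replicates distinct biological samples without naming separate cultures, so the p-values below measure the spread between these samples, which may in part be technical.

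The tests covered the 25341 transcript clusters to which a gene symbol is assigned, of 41345 in all. Values were deposited as log2 signals, and a difference of 1 on this scale is a doubling. A group mean under log2 5 is called dim here, which applied to both groups for 12037 clusters (47.5%). The array medians were 5.06 to 5.14, and no 2 arrays held the same values. Correlations between arrays of 1 group ran from 0.985 to 0.992 across clusters, which are not independent replicates. The p183AT arrays were the more variable group, with a within-array residual SD of 0.19 to 0.214 against 0.169 to 0.201 on the pAT arrays. All 10 mESC markers were measured, among them Pou5f1, Sox2 and Nanog, and their mean per array was 8.87 to 8.89 in p183AT and 8.86 to 8.97 in pAT cells, with only Dppa5a dim. The 12 measured fibroblast markers averaged 4.77 to 4.85 per array in p183AT and 4.72 to 4.95 in pAT cells, with 5 of 12 dim in both groups. The 26 markers of mesendoderm and extraembryonic lineages averaged 5.54 to 5.64 per array in p183AT and 5.46 to 5.54 in pAT cells, with 10 of 26 dim in both groups, and no marker of any list was called. The part of other cell types in the results below was not tested.

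MicroRNAs guide Argonaute proteins to messenger RNAs, mostly through pairing of the seed (bases 2 to 8 from the 5′ end) with a site in the 3′ untranslated region, which lowers translation and mRNA stability. The miR-183 family is transcribed as 1 cluster and is known from sensory cells, among them the hair cells of the inner ear, where mutations in the seed of miR-96 cause deafness in humans and mice. Atoh1 is the basic helix-loop-helix transcription factor required for hair cell formation. Notch signalling restrains its expression, and Id proteins inhibit its activity.

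The mature guide strands are shown because the seed decides which mRNAs each microRNA can bind. They are RefSeq sequences of mouse build GRCm38.p6, written 5′ to 3′ with the seed in capitals, and all 3 lie on the minus strand of chromosome 6.
mmu-miR-183-5p: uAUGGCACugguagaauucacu
mmu-miR-96-5p: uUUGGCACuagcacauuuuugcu
mmu-miR-182-5p: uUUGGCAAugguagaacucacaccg
They map to chr6:30169711-30169732 (miR-183-5p, 22 bases), chr6:30169506-30169528 (miR-96-5p, 23 bases) and chr6:30165962-30165986 (miR-182-5p, 25 bases), within a stretch of 3820 bases that holds the 3 hairpins. No 2 members shared the whole seed. Counted from 1 at the 5′ end, miR-96 differed from miR-183 by A2U and shared 6 of 7 seed bases, and miR-182 differed from miR-96 by C8A, also with 6 of 7 shared. The seeds of miR-183 and miR-182 differed by both A2U and C8A, with 5 of 7 bases shared.

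The 3 hairpins rose in p183AT cells, and they were the only clusters called between p183AT and pAT cells at an adjusted p under 0.05, 3 of 25341 or 0.0118%. Each difference was tested with limma in a fit over the 15 mESC arrays, with Benjamini-Hochberg adjustment over all tested clusters. The Mir96 cluster gave 8.14, 8.21 and 9.83 on the p183AT arrays, against 2.83, 2.94 and 3.55 on the pAT arrays. All 3 p183AT arrays lay far above the pAT arrays, with replicate 3 the highest. The means were 8.73 ± 0.95 in p183AT and 3.11 ± 0.39 in pAT cells (SD, n = 3 each), a difference of 5.62 with a standard error of 0.33, or 49.2-fold, at an adjusted p of 7e-07. Mir182 gave 8.23, 7.80 and 9.81 on the p183AT arrays, against 3.77, 3.61 and 3.44 on the pAT arrays, a difference of 5.01 with a standard error of 0.39, or 32.2-fold (adjusted p = 1.8e-05). Mir183 gave 5.52, 5.87 and 7.68 on the p183AT arrays, against 2.34, 2.85 and 2.56 on the pAT arrays, a difference of 3.78 with a standard error of 0.38, or 13.7-fold (adjusted p = 0.00047). As for Mir96, the groups did not overlap and p183AT replicate 3 was highest. All 3 hairpins were dim in pAT cells and no detection calls were used, so the folds are read as lower bounds. The 3 calls held in limma under every alternative run, except that Mir183 was lost on the 6 compared arrays alone (adjusted p = 0.38). Mir183 was also not tested where dim clusters were left out, a setting that required log2 6 on at least 3 arrays. All 3 were lost with the methods' one-way test (adjusted p = 0.88 to 1). These clusters do not tell a primary transcript from a hairpin or a mature microRNA.

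Atoh1 itself, which both vectors carried, did not differ beyond the spread between arrays. Its cluster gave 6.27, 6.08 and 6.10 on the p183AT arrays, against 6.0, 5.83 and 6.19 on the pAT arrays, and the groups overlapped. The difference was 0.14 (95% interval -0.20 to 0.48, adjusted p = 1). Without the Atoh1 vector the cluster stood at 4.90, 4.37 and 4.69 in p183T cells and 4.93, 4.84 and 5.24 in pT cells. In pAT against pT cells Atoh1 rose by 1.0 (adjusted p = 0.0049).

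**Figure D1:**
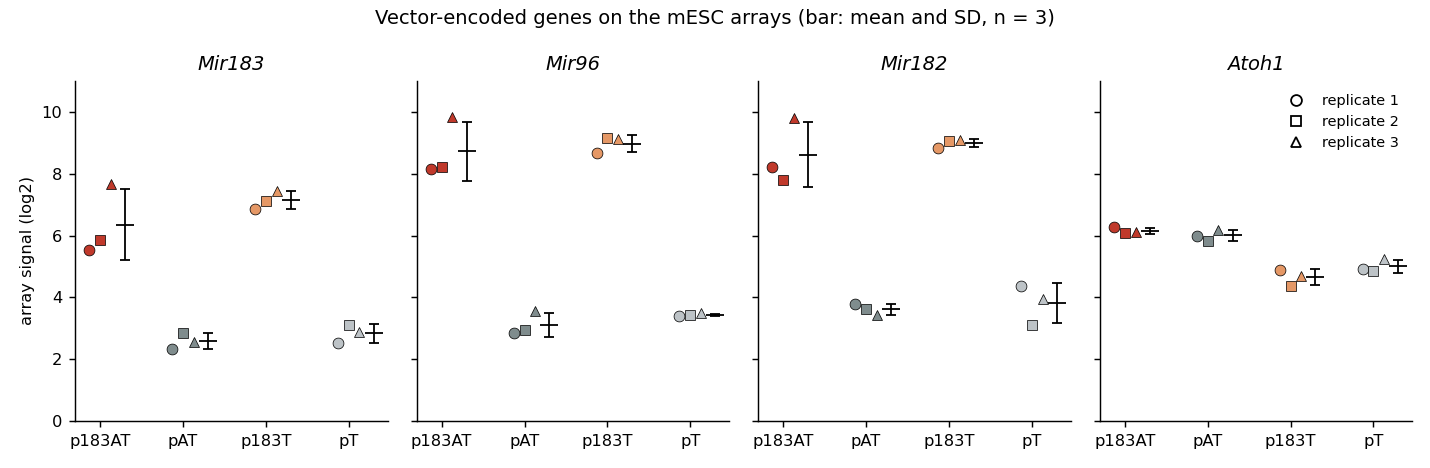
Log2 signal of the vector-encoded genes on each mESC array (points) with group means and SDs (n = 3), p183AT left of pAT and p183T left of pT. The 3 hairpins lie between 5.52 and 9.83 on the p183AT arrays and between 2.34 and 3.77 on the pAT arrays, while Atoh1 overlaps between p183AT and pAT.

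The hairpins also rose on the background without Atoh1. In p183T against pT cells, which share no array with p183AT and pAT cells, Mir96 rose by 5.54, Mir182 by 5.18 and Mir183 by 4.31, and these were again the only 3 clusters called (0.0118%). The difference of differences was 0.08 for Mir96, -0.17 for Mir182 and -0.53 for Mir183, each with an adjusted p of 1 in limma, so a difference between the backgrounds was not detected.

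Beyond the hairpins no cluster was called in either direction, and 0 of 25341 were called lower. An unadjusted limma p under 0.05 was reached by 1235 clusters (4.87%), 635 higher in p183AT (2.51%) and 600 lower (2.37%). The 3 p183AT arrays lay entirely above the 3 pAT arrays for 929 clusters (3.67%) and entirely below for 761 (3%), together 1690 (6.67%). The median standard error of a difference was 0.149 and the median difference was 0.012. Among the 16004 clusters without a symbol, fitted apart, 0 were called, 865 had an unadjusted limma p under 0.05 and the smallest adjusted p was 0.13.

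A fold of at least 1.5 with an unadjusted p under 0.06, the study's threshold applied here to limma's p over 15 arrays, was passed by 208 clusters (0.821%), 80 higher (0.316%) and 128 lower (0.505%) in p183AT cells. This is a description, uncorrected for the number of clusters, and with the methods' one-way test the count was 58 (31 higher, 27 lower). In limma it was 572 without p183AT replicate 2 and 346 without pAT replicate 3. Of the 208, 130 (62.5%) were dim in both groups. Some clusters of the array held the same values on all 30 arrays, and with such copies counted once the set held 163, of which 75 were higher and 88 lower. Of the 75 higher ones 67 were dim in both groups, and only 5, Mir96 and Mir182 among them, had a mean over both groups at or above the dim limit, against 37 of the 88 lower ones. Small RNAs made up 23 of those 37, whereas 24525 of the 25337 clusters besides the cargo, copies included, were not small RNAs.

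**Figure D2:**
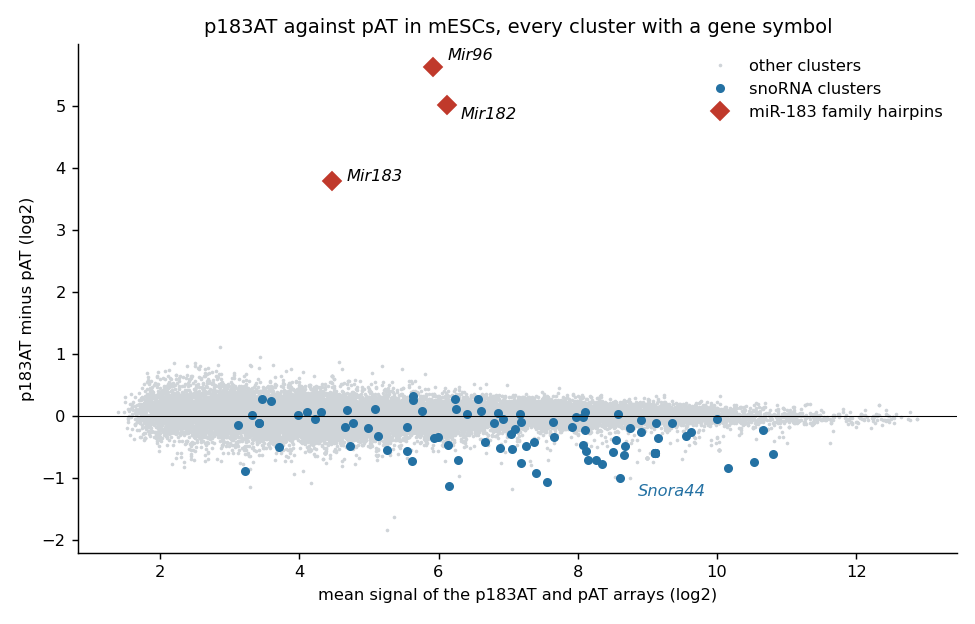
Difference p183AT minus pAT (log2) against the mean signal (log2) for each of the 25341 clusters with a symbol, with the 3 hairpins (red diamonds) and the snoRNA clusters (blue) marked. The hairpins lie at 3.78 to 5.62, far above the cloud around 0, and the snoRNAs mostly below 0, with Snora44 at -0.99.

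Among clusters with 1 symbol, at least 1 group at or above the dim limit, non-overlapping arrays and an unadjusted p under 0.05, 110 were higher and 94 lower in p183AT cells. The hairpins were left out of these counts, and the brightest cluster stood for a gene with several. The 10 with the largest difference in each direction are given as a description, since none was called. The higher ones ran from 0.51 to 0.75 and had no small RNA among them: Zfp937, Fthl17b, B3gnt3, Klk1, Nxf7, Slc15a1, Septin1, Zfp729b, Krt17 and Itpripl2, with adjusted p of 0.88 to 0.99. Septin1, a cytoskeletal GTPase, gave 6.85, 7.11 and 6.87 on the p183AT arrays, against 6.50, 6.48 and 6.31 on the pAT arrays, a difference of 0.52 (95% interval 0.24 to 0.79). Slc15a1, a peptide transporter, gave 5.97, 5.90 and 5.79 on the p183AT arrays, against 5.18, 5.50 and 5.41 on the pAT arrays, a difference of 0.53 (95% interval 0.25 to 0.81). Both genes had fallen with Atoh1 alone, by 1.16 (Septin1) and 1.19 (Slc15a1) in pAT against pT cells, at an adjusted p of 0.00022 for each, and the pAT arrays enter both contrasts with opposite sign. Nxf7, a member of the nuclear RNA export factor family, had the tightest groups of the 10, at 5.14, 5.20 and 5.11 on the p183AT arrays against 4.53, 4.57 and 4.64 on the pAT arrays, a difference of 0.57.

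Of the 10 lowest, 6 were small non-coding RNAs, namely the small nucleolar RNAs Snord118, Snora44, Snord13, Snord71 and Snora69 and the Y RNA Rny3, and the others were Krtap5-2, Calhm5, Gm6713 and Tubb4a. Snora44, a box H/ACA small nucleolar RNA, gave 8.08, 8.05 and 8.19 on the p183AT arrays, against 9.26, 9.23 and 8.81 on the pAT arrays. Every p183AT array lay below every pAT array, and pAT replicate 3 was the nearest. Snora44 had risen by 0.78 in pAT against pT cells (limma adjusted p = 0.027). The pAT arrays enter both contrasts with opposite sign. The means were 8.11 ± 0.08 in p183AT and 9.10 ± 0.25 in pAT cells (SD, n = 3 each), a difference of -0.99 (95% interval -1.32 to -0.65), and the pAT level was 1.98 times the p183AT level. Its adjusted p of 0.093 missed the threshold. Over the alternatives it ran from 0.024 with a mean-variance trend in limma to 1 with the methods' one-way test, with 0.031 when dim clusters were left out, 0.032 without pAT replicate 3, 0.94 in limma on the 6 compared arrays and 0.70 without pAT replicate 2. Snord118, the box C/D RNA also known as U8, which acts in ribosomal RNA processing, gave 5.46, 5.64 and 5.67 on the p183AT arrays, against 6.97, 6.91 and 6.28 on the pAT arrays, a difference of -1.13 (95% interval -1.76 to -0.51). Rny3, an RNA component of Ro particles, gave 8.03, 8.25 and 8.46 on the p183AT arrays, against 9.51, 9.58 and 8.65 on the pAT arrays, a difference of -1.0. For both of these pAT replicate 3 was the lowest pAT array, and for Rny3 it lay close to the highest p183AT array. Snord118 and Rny3 also stood higher in pAT than in pT cells, by 0.95 and 0.82, as did Snora69 (0.70) and Tubb4a (0.56). None of these rises was called. Over the rest of the 10, Snora44 apart, pAT minus pT ran from -0.12 (Calhm5) to 0.33 (Snord13). Tubb4a, a beta tubulin, had tight groups, at 4.75, 4.96 and 4.72 on the p183AT arrays against 5.45, 5.52 and 5.36 on the pAT arrays, a difference of -0.63 (adjusted p = 0.88). Snora33 stayed outside the 10 because its brighter cluster overlapped between the groups, with differences of -0.74 for that cluster and -0.76 for the other. The most negative difference of all clusters belonged to one shared by Snord68, Rpl13 and Rpl13-ps6, named here after its value was seen, with 4.34 ± 0.98 in p183AT and 6.17 ± 0.54 in pAT cells (SD, n = 3 each) and a difference of -1.83 in limma (adjusted p = 0.55), which the array cannot assign to 1 of these genes.

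The study names 10 genes for this comparison, and 9 had a cluster here. They were chosen on these same arrays, so their directions are no independent evidence. None was called, 7 were dim in both groups and their adjusted p, Snora44 apart, were 0.82 to 1. Tagap1 had the largest positive difference, 1.11, with 3.44, 3.75 and 3.04 on the p183AT arrays against 2.40, 2.19 and 2.32 on the pAT arrays, all far under the dim limit. Ptpn20 (0.62), Glb1l2 (0.61) and Gm9999 (0.47) also had p183AT arrays entirely above the pAT arrays. In pAT minus pT, which shares the pAT arrays, Tagap1 differed by -0.94, Ptpn20 by -0.34, Glb1l2 by -0.44 and Gm9999 by -0.09, none called. Fat4, a giant protocadherin of planar cell polarity and Hippo signalling, gave 3.11, 3.63 and 3.16 on the p183AT arrays, against 3.98, 3.88 and 4.14 on the pAT arrays, a difference of -0.70. Gm11517 (-1.15) and Snora44 (-0.99) likewise did not overlap, while Snord35a (-0.77) overlapped through its replicates 3, 8.40 in p183AT and 8.37 in pAT. Oxct2b has 2 clusters, and the brighter on average differed by -0.05 and the other by 0.87, so a direction for this gene depends on the cluster.

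The first question the comparison poses is whether mRNAs that the family is known to repress stood lower in p183AT cells. Of 47 targets known from the literature 43 were measured, and as a group their differences sat near 0. In sorted bulk RNA a lower level per cell and fewer cells with a transcript cannot be told apart. Of the 43, 23 were higher and 20 lower in p183AT cells, with a median difference of 0.018 (quartiles -0.10 and 0.08) against 0.012 over all clusters (quartiles -0.09 and 0.11). None was called, none had an unadjusted limma p under 0.05 in the lower direction, and 2 lay entirely lower in p183AT cells, 4.65% against 3% of all clusters. Entirely higher lay 3 targets, 6.98% against 3.67% of all clusters. The 95% interval excluded a 1.5-fold lower level for 40 of the 43. In p183T against pT cells the median was -0.056 with 26 lower, and 11 were lower in both comparisons.

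Foxo1 and Foxo3, transcription factors of the FoxO family, differed by 0.03 (95% interval -0.20 to 0.26) and -0.11 (-0.36 to 0.13). Ezr, which encodes the membrane-cytoskeleton linker ezrin, gave 9.39, 9.41 and 9.42 on the p183AT arrays, against 9.45, 9.64 and 9.58 on the pAT arrays, a difference of -0.15 (95% interval -0.37 to 0.06). Its p183AT arrays lay just under the lowest pAT array, whereas in p183T against pT cells the difference was -0.02. Adcy6, an adenylyl cyclase, gave 6.01, 6.01 and 5.58 on the p183AT arrays, against 6.30, 6.31 and 6.01 on the pAT arrays, a difference of -0.35 (95% interval -0.72 to 0.03). It gave 6.01, 6.04 and 5.65 in p183T cells, against 6.64, 6.30 and 6.01 in pT cells, a difference of -0.42, and replicate 3 was the lowest array in all 4 groups. The 3 targets at an unadjusted p of 0.05 or less, Rgs2, Dkk3 and Abca1, all had the higher mean in p183AT cells. Rgs2, a regulator of G protein signalling, differed by 0.50 (95% interval 0.13 to 0.86), with 5.71, 5.41 and 5.48 on the p183AT arrays against 5.12, 5.43 and 4.57 on the pAT arrays, which overlap. Abca1, the cholesterol exporter, differed by 0.21 with non-overlapping arrays, 6.02, 6.0 and 6.04 in p183AT against 5.85, 5.85 and 5.72 in pAT cells.

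The study also names predicted targets, picked for low levels in p183T mESCs or in iMOP cells, of which 12 of 14 were measured and Egr1 and Tbx1 stand in the literature list too. In p183AT against pAT cells 7 of the 12 were higher and 5 lower, the median was 0.027, none was called and none had an unadjusted p under 0.05. In p183T against pT cells, on which some of them were picked, the median was -0.24 and 10 were lower. Eif4a2, a translation initiation helicase, gave 8.37, 8.10 and 8.82 on the p183AT arrays, against 8.20, 8.22 and 8.01 on the pAT arrays, and the groups overlapped. Its difference was 0.29 (95% interval -0.13 to 0.71), against -0.53 in p183T minus pT. Slc39a1, a zinc importer, differed by -0.18 (95% interval -0.51 to 0.14), against -0.41 in p183T minus pT. Spry4, a feedback inhibitor of receptor tyrosine kinase signalling, was the only one of the 12 with p183AT arrays entirely lower, 9.96, 9.86 and 9.90 against 9.97, 10.01 and 10.07 in pAT cells, a difference of -0.11. Egr1, an immediate early gene, varied with the replicate number, with 7.15, 7.23 and 8.18 on the p183AT arrays against 6.78, 6.81 and 8.81 on the pAT arrays, and replicate 3 was also its highest in p183T (8.42) and pT cells (8.99).

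**Figure D3:**
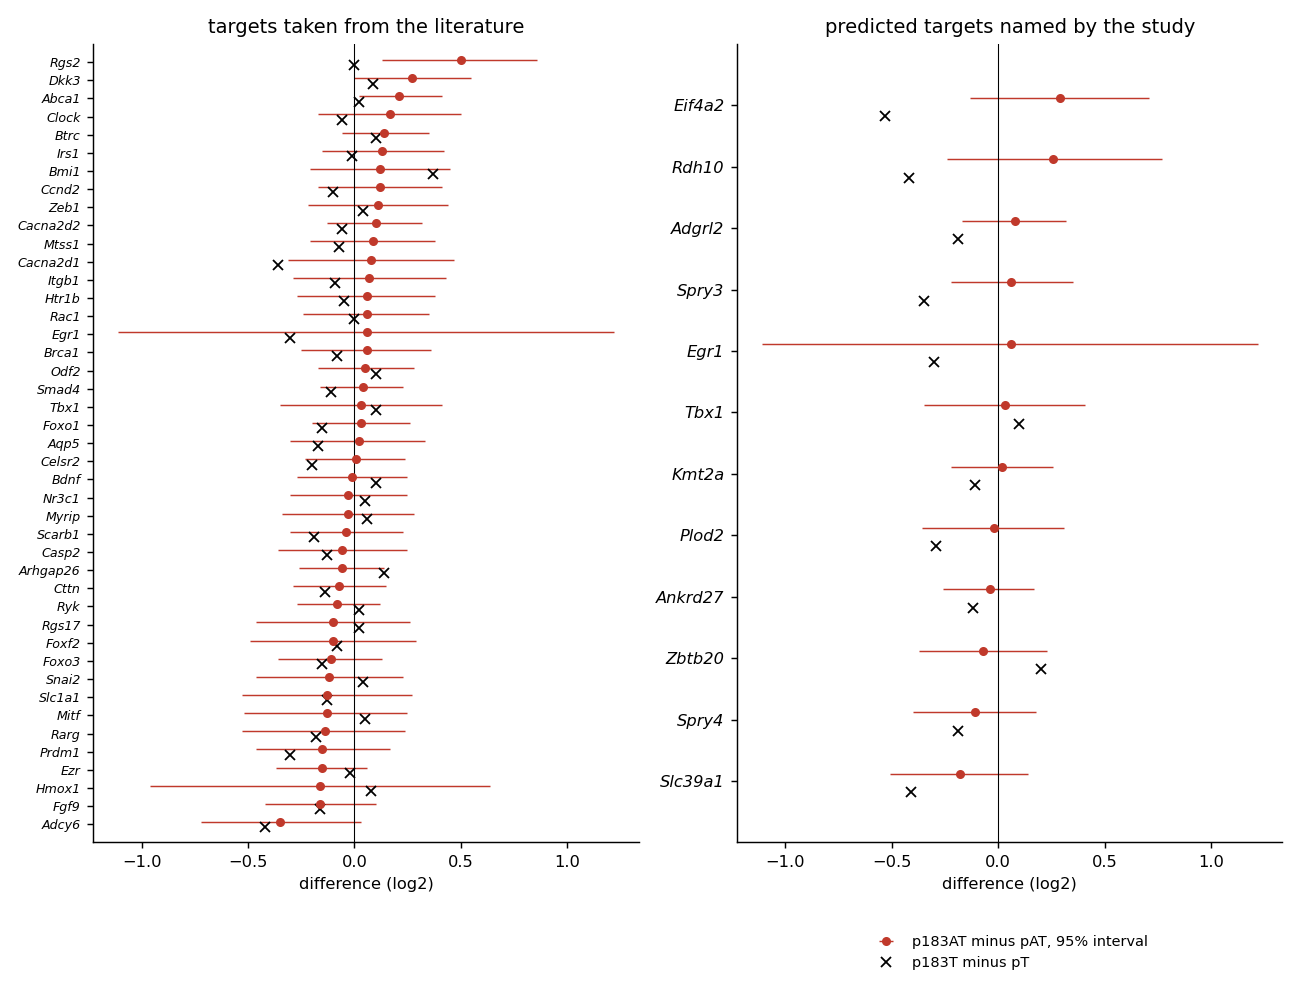
Difference p183AT minus pAT (log2, points) with 95% intervals (bars), and p183T minus pT (crosses), for the 43 measured literature targets and the 12 measured predicted targets that the study names. The p183AT minus pAT points scatter on both sides of 0, with medians of 0.018 and 0.027, and the crosses of the predicted targets lie mostly below 0, with a median of -0.24.

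The proteins that make and use microRNAs, from the nuclear processing enzymes to the effector complex, gave 27 of 32 measured genes, 21 higher and 6 lower, with a median of 0.042 and none called. Over all clusters 13507 were higher and 11834 lower. In p183T minus pT this list had 9 higher and 18 lower, with a median of -0.041. Dicer1, the RNase that cuts hairpin precursors to the mature form, gave 9.38, 9.16 and 9.33 on the p183AT arrays, against 8.87, 9.02 and 9.12 on the pAT arrays. The groups did not overlap, the difference was 0.28 (95% interval 0.05 to 0.52, adjusted p = 0.99), and it was -0.02 in p183T minus pT. Ago2, the slicing Argonaute, differed by -0.03 (95% interval -0.29 to 0.22).

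Genes of the Notch pathway and genes known to respond to Atoh1, of which only some moved with Atoh1 alone in these cells, were followed next, and none of 36 was called between p183AT and pAT cells. Of the 36, 23 were higher and 13 lower, with a median of 0.051. Hes6, which encodes a basic helix-loop-helix factor that opposes Hes1, rose with Atoh1 alone by 1.74 in pAT against pT cells (adjusted p = 1.5e-06). It gave 8.62, 8.93 and 8.82 on the p183AT arrays, against 8.47, 8.58 and 8.58 on the pAT arrays, a further 0.24 that was not called (95% interval 0.01 to 0.48). Dll3, a Notch ligand family member that acts inside the cell, rose by 1.65 with Atoh1 alone (adjusted p = 2.3e-06) and differed by 0.15 between p183AT and pAT cells (95% interval -0.09 to 0.40). Cdc25b, a cell cycle phosphatase, rose by 1.63 with Atoh1 alone (adjusted p = 1.5e-06) and differed by 0.03 between p183AT and pAT cells (95% interval -0.20 to 0.26). Lama1, a basement membrane laminin chain, rose by 1.94 with Atoh1 alone (adjusted p = 5.1e-06) and differed by 0.23 (95% interval -0.08 to 0.54).

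The smallest p-values of the list belonged to Ebf2 and Hes5. Ebf2, an early B-cell factor of neural differentiation, gave 5.41, 5.72 and 5.58 on the p183AT arrays, against 5.08, 5.21 and 5.07 on the pAT arrays, a difference of 0.45 (95% interval 0.22 to 0.68, adjusted p = 0.88). It gave 4.75, 4.93 and 4.85 in p183T cells, against 4.67, 4.60 and 4.55 in pT cells, a difference of 0.24, so on both backgrounds the arrays with the family lay above those without it. Hes5, a Notch effector, gave 5.0, 5.25 and 5.08 on the p183AT arrays, against 4.79, 4.78 and 4.51 on the pAT arrays, a difference of 0.42 (adjusted p = 0.89), and differed by 0.03 in p183T minus pT. Hes7, a clock gene of the same family, differed by -0.30 (95% interval -0.58 to -0.03), without a call. Dll1, the ligand of lateral inhibition, differed by -0.03 (95% interval -0.45 to 0.39).

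Hair cell genes were mostly dim, 26 of the 41 measured in both groups. Of the 41, 26 were higher and 15 lower, with a median of 0.035 and none called. Pou4f3, a transcription factor needed for hair cell survival, gave 5.52, 4.95 and 5.33 on the p183AT arrays, against 4.97, 4.63 and 5.13 on the pAT arrays, which overlap (difference 0.35, 95% interval -0.10 to 0.81). Gfi1, a zinc finger factor of hair cells, differed by -0.28 (95% interval -0.66 to 0.10) and overlapped as well. Espnl, an espin-like protein of stereocilia, differed by 0.26, and Myo15, the unconventional myosin of stereocilia tips, by -0.31, and both lay near the dim limit.

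Genes of the stem cell state gave the same picture of small, uncalled differences. Of 31 measured naive and core pluripotency genes 17 were higher and 14 lower (median 0.037). Prdm14, a naive-state repressor of differentiation, gave 5.21, 5.21 and 5.24 on the p183AT arrays, against 5.05, 4.77 and 4.71 on the pAT arrays, a difference of 0.38 (adjusted p = 0.99). Prdm14 had fallen by 1.11 in pAT against pT cells (adjusted p = 0.00037), again a contrast that shares the pAT arrays. Nr5a2, an orphan nuclear receptor of the pluripotency network, had fallen by 1.18 (adjusted p = 0.0012) and differed by 0.38 between p183AT and pAT cells, with 6.74, 6.25 and 6.56 on the p183AT arrays against 5.84, 6.26 and 6.31 on the pAT arrays. The groups of Nr5a2 overlapped.

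Mesendoderm and extraembryonic genes had a list median of 0.116, with 20 of 26 higher (13507 of 25341 over all clusters) and none called. Gata6, the primitive endoderm factor, gave 6.92, 6.90 and 6.64 on the p183AT arrays, against 6.25, 6.42 and 6.43 on the pAT arrays, a difference of 0.45 (95% interval 0.04 to 0.86, adjusted p = 0.99), and differed by -0.09 in p183T minus pT. Pdgfra, the receptor that marks the same lineage, gave 6.49, 6.15 and 6.12 on the p183AT arrays, against 5.75, 6.10 and 6.05 on the pAT arrays, a difference of 0.29. In p183T against pT cells the median of this list was -0.045, with 11 of 26 higher.

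The remaining lists had medians between -0.044 and 0.044 and no call. They were Id genes and proneural factors (-0.022), primed epiblast and early neural genes (-0.035), fibroblast genes (-0.032), interferon-stimulated genes (-0.019), p53 targets (0.044), FGF and MAPK feedback genes (0.018), cell cycle and DNA replication genes (0.028), stress genes of the unfolded protein response (-0.044) and imprinted genes (-0.008). An unadjusted p under 0.05 was reached in 3 of these lists, by 1 gene each: Nefm, a neurofilament chain (-0.45), Fbln2, an extracellular matrix fibulin (-0.27), and Ifit2, an interferon-induced antiviral protein (0.51). Nefm and Ifit2 were dim in both groups, and the arrays of Nefm overlapped. For the cell cycle genes the 95% intervals of all 30 measured members lay within a 1.5-fold difference in either direction.

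Small nucleolar RNAs (snoRNAs), which guide the chemical modification of ribosomal and spliceosomal RNA and are mostly excised from introns of host genes, had differences that sat off centre. The class was taken up after its values were seen, so it carries no test. Of 82 snoRNA clusters, copies counted once, 62 were lower and 20 higher in p183AT cells, with a median of -0.223. Their p183AT arrays lay entirely lower for 15 (18.3%, against 3% of all clusters) and entirely higher for 0, and 0 were called. By type, 23 of 27 box H/ACA and 35 of 46 box C/D clusters were lower.

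The class was not separated array by array, however. Its mean level was 6.62, 6.65 and 6.99 on the p183AT arrays, against 7.02, 7.12 and 6.96 on the pAT arrays. p183AT replicate 3 thus lay among the pAT arrays, and the median was -0.37 without it. Protein-coding clusters, most of those tested, averaged 5.84 to 5.87 on every array of these groups. Quantile normalization alone would tend to make their mean even, so it is no independent reference.

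The host genes of these snoRNAs had differences around 0. For 67 snoRNAs within 1 measured host gene (48 hosts, matched by position without regard to strand), the snoRNA median was -0.19, with 48 lower, and the host median was -0.01, with 25 hosts lower and 21 higher and none at an unadjusted p under 0.05. Snora44 and Snord99 lie in Snhg12, whose own difference was -0.11, while Snora44 differed by -0.99 and Snord99 by -0.92. In the same host Snora16a differed by -0.57 and Snora61 by 0.05, so its snoRNAs did not all stand lower. Snora75 differed by -0.63 and Snord82 by -0.32, and their host Ncl, the gene of nucleolin, by -0.03. Snora69 differed by -0.71 and its host Rpl39, a ribosomal protein gene, by -0.08. The Rpl39 cluster averaged only 5.62 in p183AT and 5.70 in pAT cells, not far above the dim limit.

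**Figure D4:**
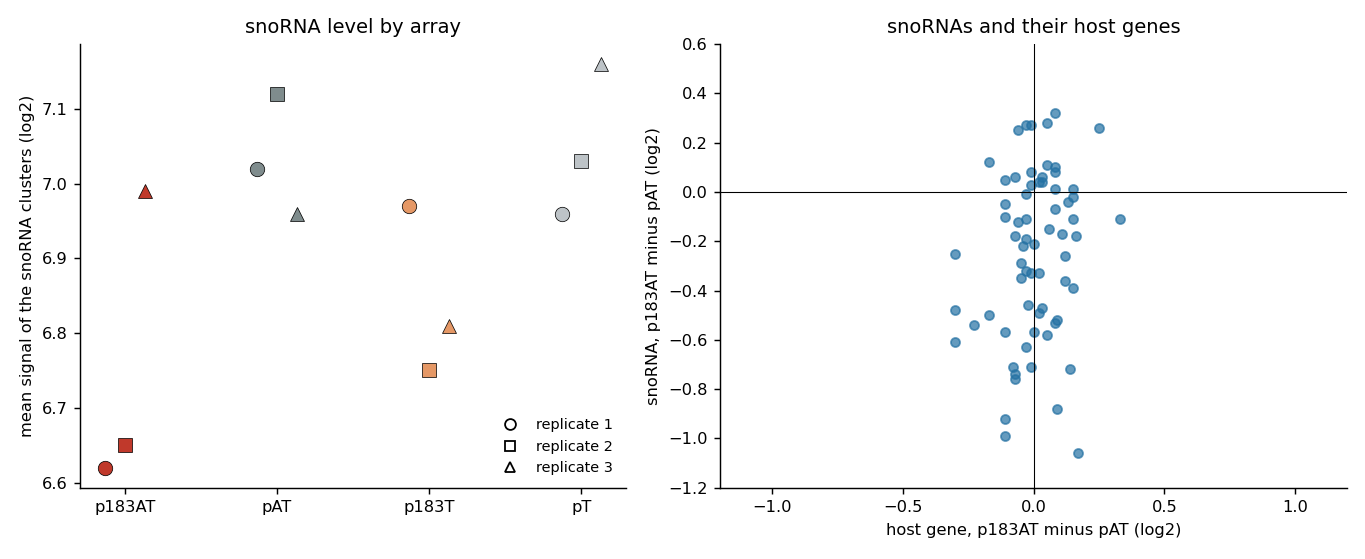
Left, mean log2 signal of the 82 snoRNA clusters on each mESC array by group. Right, difference p183AT minus pAT (log2) of 67 snoRNAs against that of their host genes, with snoRNAs reaching below -1 while hosts stay between -0.30 and 0.33.

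On the background without Atoh1 the snoRNA median was -0.196 in p183T minus pT, and 55 of the 82 were lower in both comparisons. The mean level was 6.97, 6.75 and 6.81 on the p183T arrays, against 6.96, 7.03 and 7.16 on the pT arrays, and the groups overlapped narrowly. In iMOP cells the direction was the opposite, with a median of 0.441 in p183AT minus pAT and 77 of 82 higher. Snora44 followed the class, with 7.88, 7.91 and 7.64 in p183T cells against 8.30, 8.23 and 8.40 in pT cells (difference -0.50), and 0.85 in iMOP p183AT minus pAT. Averaged over both mESC backgrounds its difference was -0.75 with an adjusted p of 0.045, which made it the only cluster besides the hairpins called in the average response (4 of 25341, 0.0158%). The call was lost in 11 of 12 fits that left out 1 array, at adjusted p of 0.10 to 0.21, and with all 30 arrays in the fit (adjusted p = 1).

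The comparisons with and without Atoh1 share no array, so the recurrence of small differences could be examined between them. With the cargo genes left out, 12611 of 25337 clusters (49.8%) had the same sign in p183AT minus pAT and p183T minus pT, with Pearson's r = 0.02 and Spearman's rho = 0 across clusters, which share arrays and probe chemistry. Among 11450 protein-coding clusters at or above the dim limit the share was 50% and r = -0.018. Of the 205 clusters past 1.5-fold and p under 0.06, 160 with copies counted once, 88 (55%) had the same sign on the other background, and without small RNAs 60 of 124 (48.4%). Of the 40 of them at or above the dim limit, 37 lower and 3 higher in p183AT cells, 30 (75%) had the same sign. Of the 37 lower ones 23 were small RNAs, and their part in this share was not tested. Of 1687 clusters whose p183AT and pAT arrays did not overlap, 80 were separated in the same direction in p183T and pT cells and 60 in the opposite direction, where over all clusters the p183T arrays lay entirely above the pT arrays for 4.09% and entirely below for 4.08%.

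The same comparison was made with arrays as the units. Each p183AT and pAT array was scored by the mean product of its centred values and the p183T minus pT differences, given here multiplied by 1000. The scores were -3.43, 3.08 and 1.22 for the p183AT arrays, against 1.89, -2.08 and -0.677 for the pAT arrays. The groups overlapped, with p183AT replicate 1 the lowest array of all. The difference of 0.577 had a two-sided exact permutation p of 0.9 over 20 divisions of the arrays, of which the smallest possible is 0.1, so no p under 0.05 could be reached.

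**Figure D5:**
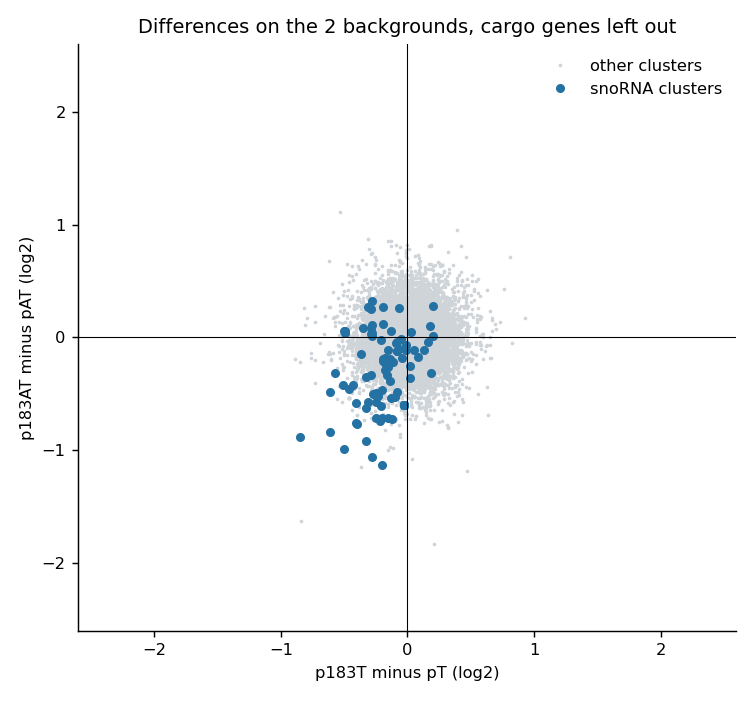
Difference p183AT minus pAT (log2) against difference p183T minus pT (log2) for 25337 clusters with a symbol, the cargo genes left out and the snoRNA clusters marked. The cloud has no slope (r = 0.02), and the snoRNAs lie mostly in the lower left, with 55 of 82 lower in both.

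A departure from additive effects, tested as p183AT minus pAT less p183T minus pT, gave 0 called clusters with limma, and 832 (3.28%) had an unadjusted p under 0.05. For Eif4a2 the difference of differences was 0.82 and for Tagap1 1.64, neither called. Against the same vectors in iMOP cells, p183AT minus pAT differed in 1 cluster (0.00395%), Mir96, and 1043 (4.12%) had an unadjusted p under 0.05. Mir96 rose by 3.04 in iMOP cells and by 5.62 in mESCs (difference -2.59, adjusted p = 0.0096), and 0 clusters were called without mESC pAT replicate 1 or 2, iMOP pAT replicate 2 or iMOP p183AT replicate 3. In iMOP cells too the hairpins were the only 3 clusters called between p183AT and pAT (0.0118%).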

How the data were processed

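The authors sorted RFP-positive cells, labelled 200 ng of total RNA with the WT PLUS kit and hybridized Mouse Gene 2.0 ST arrays. The deposited table holds log2 signals per transcript cluster on 30 arrays, made by the authors with RMA (background correction, quantile normalization and probe summary) in Affymetrix Expression Console 1.4.1.46 per the labels and methods. The sources used here state neither an annotation build nor whether the arrays of both lines were normalized in 1 run. Arrays carry no read depth, and their number limits the precision.

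Clusters with a gene symbol (25341, of which 23521 carry 1 symbol and 1820 several) entered limma (version 3.58.1, R 4.3.3) on the values as deposited, in 1 fit over 15 mESC arrays (5 groups of 3), with Benjamini-Hochberg adjustment and a threshold of 0.05. The contrasts were p183AT minus pAT, p183T minus pT, their mean and their difference. Comparison with iMOP cells used all 30 arrays. The study's threshold (fold of at least 1.5, unadjusted p under 0.06) is given as a description. Where a gene had several clusters, the one of highest mean stood for it. Array scores were compared by an exact permutation test. Scripts were tested on simulated data.

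Named genes were the vector cargo, called clusters, the 10 highest and 10 lowest non-overlapping clusters with an unadjusted p under 0.05 and a group mean of at least log2 5, genes the study names for these arrays, and up to 2 per direction from each other list. The comparison, its gene lists and markers were chosen with earlier results of these data known. Genes named outside this rule, among them list members with a known role, targets with p above the limit and snoRNAs with their hosts, were chosen after their values were seen. snoRNA and other classes were taken from RefSeq biotypes, matched for 23328 clusters. Genes of a list without a cluster of their own were not analysed here.

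Alternatives covered the arrays in the fit, trend, the methods' one-way test, dim clusters, normalization, clusters per gene, replicate block and leaving out each array. The setting with dim clusters left out required log2 6 on at least 3 arrays, which is stricter than the dim limit of log2 5. Those on snoRNAs were chosen after seeing the data. Figures used matplotlib 3.10.9.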

Additional observations from a re-analysis of the deposited data

Results flagged for a closer look

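The response of Mir96 to p183AT against pAT differed between the cell lines by a limma test of that difference, -2.59 (adjusted p = 0.0096), with a rise of 3.04 in iMOP cells and 5.62 in mESCs. Mir96 averaged 6.70 ± 0.19 in iMOP and 8.73 ± 0.95 in mESC p183AT cells, and 3.66 ± 0.22 in iMOP and 3.11 ± 0.39 in mESC pAT cells (SD, n = 3 each), where it was dim in both lines, so the size of each rise rests on a signal not shown to be above background. No cluster was called on the compared arrays alone, after quantile normalization again, or in 4 of the fits that left out 1 array. The hairpins of Mir182 and Mir183 also had the smaller rise in iMOP cells, 3.23 and 2.78 against 5.01 and 3.78 in mESCs, but neither the difference of -1.78 for Mir182 (adjusted p = 0.66) nor that of -0.99 for Mir183 (adjusted p = 1) was called.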

How the results depend on the processing

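With 3 arrays in a group, differences of the size seen for most targets lay within their intervals. The count of 3 called clusters was 0 with the methods' one-way test on the 6 compared arrays, which pools no spread over clusters (725 at p under 0.05), and 2 with limma on those 6 arrays, where Mir183 was lost (adjusted p = 0.38). Leaving out each array gave 3 to 4, with 1 lower call without pAT replicate 3 and 1 without p183AT replicate 2. With all 30 arrays the count was 4, of which 1 was lower. The lower calls with all 30 arrays and without p183AT replicate 2 were not Snora44. The count past 1.5-fold, 208, was 58 with dim clusters left out (2 higher, 56 lower). That setting tested the 9583 clusters that passed log2 6 on at least 3 arrays. The count was 58 with the one-way test (31 higher, 27 lower) and 169 to 572 with 1 array left out. It was 346 without pAT replicate 3 and 572 without p183AT replicate 2. Its split of 80 higher to 128 lower was 86 to 109 after median centring and 72 to 73 with 1 cluster per symbol. The average response had 4 calls, and 3 to 4 with 1 array left out. With all 30 arrays it had 4, all higher, so that Snora44 was lost. Non-additivity had 0 in each setting run. The iMOP comparison had 1 call, 0 on the compared arrays alone, 0 after quantile normalization again, and 0 to 2 with 1 array left out, where 0 followed leaving out mESC pAT replicate 1 or 2, iMOP pAT replicate 2 or iMOP p183AT replicate 3. The array score difference of 0.577 was reversed without pT replicate 1 (-0.624), pAT replicate 2 (-0.317) or p183AT replicate 2 (-0.817), with a range of -0.817 to 2.44. The snoRNA median of -0.22 was -0.33 with copies counted separately, -0.32 with dim clusters left out and -0.37 to -0.20 with 1 array left out. Over the named genes and all settings, 836 values stayed on their side of the threshold, 17 lost a call and 3 gained one, the last all for Snora44. With the replicate number as a block the count was 3 and the average response had 3, Snora44 being lost (adjusted p = 0.11). Same-numbered p183AT and pAT arrays deviated together only weakly (r of -0.07, -0.02 and 0.21). Differently numbered ones gave r of -0.24 to 0.31, and same-numbered p183T and pT arrays gave 0.05, -0.09 and 0.29. The numbers were not taken as pairs. The causes of these changes were not tested. A search of transcripts for seed sites was not run here.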
